A study of Rattus norvegicus with 12 samples.

Results

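The genes described are markers of the ependyma, the ciliated cell layer that lines the brain ventricles, together with Ttr, the defining marker of the choroid plexus. A list of 8 genes was named (Ttr, Foxj1, Spag6l, Cfap126, Ak7, Rsph1, Dynlrb2 and Cdhr4), and each was read from its brightest probe with exactly 1 gene symbol. This gave 7 of the 8 genes, out of 18166 genes measured in this way. Each of the 7 had 1 such probe, so brightness chose nothing among them. Foxj1 was not analysed here, because no probe was listed for it alone. The list was chosen by marker role with earlier results of these arrays known, in which the log2 intensities of Spag6l and Cfap126 had been singled out in the right inferior colliculus of deaf rats. Their values in that comparison are therefore given as a description.

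The tissue was inferior colliculus (IC), the auditory centre of the midbrain, from SD rats. The groups were the left IC of single-sided deaf rats, the left IC of control rats, the right IC of single-sided deaf rats and the right IC of control rats, with 3 arrays each. Deaf rats had the right cochlea ablated and control rats had a sham operation, an incision behind the ear without drilling into the otic bulla. The tissue was taken 2 weeks later from 20 rats per arm. The left IC gets most of its input from the right ear, the ablated one. The labels do not state the age and sex of the rats or whether an array holds tissue of 1 rat or of a pool. The p-values therefore measure only the spread between arrays, which may be technical.

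Ependymal cells carry tufts of motile cilia that move cerebrospinal fluid. The shaft of such a cilium, the axoneme, has outer microtubule doublets, a central pair of microtubules, radial spokes between them and dynein arms that drive the beat, and Foxj1 and the RFX factors are known as the transcription factors that turn on its genes. In the midbrain, ependyma lines the cerebral aqueduct and the recess beside the IC. The choroid plexus is a separate epithelium inside the ventricles that makes cerebrospinal fluid and secretes transthyretin, the product of Ttr.

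Promoter windows were read from RefSeq (build GRCr8) for 6 of the 7 measured genes, from 250 bases before the start site to 50 bases after it. They are shown because RFX factors bind a sequence called the X-box, and 2 of the cilium genes that varied together hold letters of it just before the start. The stretches below are the 100 bases before the start site on the plus strand, with the motif in capitals, at chr11:97677740-97677839 for Spag6l and chr19:61428980-61429079 for Dynlrb2.

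Spag6l: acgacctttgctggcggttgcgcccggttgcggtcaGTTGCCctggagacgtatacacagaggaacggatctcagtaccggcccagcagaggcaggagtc

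Dynlrb2: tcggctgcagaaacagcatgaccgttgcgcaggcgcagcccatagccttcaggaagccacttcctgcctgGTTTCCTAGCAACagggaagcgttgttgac

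Spag6l holds 1 arm of the motif, GTTGCC, at positions -64 to -59 from the start site, and 12.2% of 33469 rat promoter windows hold these letters on either strand. Dynlrb2 holds both arms, GTTNC and GNAAC with 3 bases between them, at positions -30 to -18, as do 0.887% of windows. The longer form, GTTNCC and GNAAC with 3 bases between them, was in none of the windows of the genes described and in 0.753% of all windows. The forkhead core TGTTTA, letters of the family that includes Foxj1, was in the window of Cdhr4 alone among them, after the start site, and in 13.7% of all windows. These letter patterns were picked after the sequences had been looked at, none of them overlap in these windows, and a match is a description of the sequence.

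Values are log2 intensities. Over all probes their median was 5.34, and correlations between arrays lay between 0.982 and 0.993. The tissue markers Gad1, Slc17a6, Gad2 and Tfap2d, genes of inhibitory, excitatory and tectal neurons, averaged 10.12, 9.75, 9.71 and 9.60 over the 12 arrays. The series title names hippocampus, and the brightest of 9 hippocampal and cortical genes, Bcl11b, Lhx2, Prox1 and Neurod2, averaged 7.12, 6.88, 6.17 and 5.25. Right controls 1, 2 and 3 stood apart in cerebellar granule cell markers: the mean gene-centred value of that list was 0.354, 0.112 and 0.554 on them, and between -0.212 and -0.031 on the other 9 arrays. Results that rest on the right controls are therefore given with the cerebellar list beside them.

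The cilium genes ranged over the 12 arrays by between 0.709 (Rsph1) and 1.17 (Cdhr4) log2 units, and the right control group was low for most of them. Cdhr4, which encodes a cadherin-related membrane protein, was at 6.35, 6.66 and 6.70 in left deaf arrays, against 6.76, 6.59 and 6.95 in left control arrays. On the other side it was at 6.27, 6.74 and 6.58 in right deaf arrays, against 6.29, 6.04 and 5.78 in right control arrays. The 3 right control arrays lay below all left control arrays, and right control 1 overlapped the right deaf arrays.

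Spag6l encodes a protein of the central pair that is needed for ciliary motility in mice. It was at 6.63, 6.84 and 7.30 in left deaf arrays, against 7.10, 6.80 and 7.41 in left control arrays. In right deaf arrays it was at 6.63, 7.24 and 7.08, against 6.70, 6.36 and 6.26 in right control arrays. Left deaf and left control overlapped, as did right deaf and right control, and right control 2 and 3 were the lowest of the 12 arrays.

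Ak7 encodes an adenylate kinase of motile cilia. It was at 4.84, 5.52 and 5.72 in left deaf arrays, against 5.89, 5.30 and 5.85 in left control arrays. It was at 5.04, 5.62 and 5.42 in right deaf arrays, against 5.46, 5.05 and 4.78 in right control arrays. Array 1 was the lowest of the 3 in both deaf groups, and the highest of the 3 in both control groups.

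Dynlrb2, a roadblock-type light chain of dynein motors, was at 4.11, 4.29 and 4.76 in left deaf arrays, against 4.45, 4.31 and 4.87 in left control arrays. It was at 4.12, 4.70 and 4.29 in right deaf arrays, against 4.28, 4.04 and 3.93 in right control arrays. The order of the arrays was close to that of Spag6l, with right control 3 lowest and left control 3 highest for both genes.

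Cfap126, known in mice as Flattop and needed there for the placement of basal bodies, behaved in part differently. It was at 4.53, 4.64 and 4.96 in left deaf arrays, against 4.74, 4.57 and 4.54 in left control arrays. It was at 4.86, 4.67 and 4.64 in right deaf arrays, against 4.75, 4.17 and 3.88 in right control arrays. Right controls 2 and 3 were again the lowest of the 12, whereas right control 1 was among the highest.

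Rsph1, a radial spoke head component, was at 4.02, 4.40 and 4.13 in left deaf arrays, against 4.43, 4.20 and 4.18 in left control arrays. It was at 3.78, 4.49 and 4.42 in right deaf arrays, against 4.38, 4.17 and 4.30 in right control arrays. Its range was the smallest of the 6 cilium genes, and the right control group was not low.

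Ttr was at 5.18, 5.29 and 4.91 in left deaf arrays, against 4.80, 4.83 and 4.90 in left control arrays. It was at 5.11, 4.89 and 5.03 in right deaf arrays, against 4.94, 4.85 and 4.95 in right control arrays. The 3 left deaf arrays lay above the 3 left control arrays, though left deaf 3 and left control 3 were at nearly the same level, and the right groups overlapped. The highest value of Ttr, 5.29, was below the median of all probes. The highest values of Cfap126 (4.96), Dynlrb2 (4.87) and Rsph1 (4.49) were below that median too. Of 23 other choroid plexus genes 9 averaged above that median, the brightest being Enpp2 at 10.66, Igf2 at 7.99, Slc31a1 at 7.79 and Otx2 at 7.55, and the list includes genes that other brain cells also express. Levels of different probes are not compared further. Whether the probes of Ttr, Cfap126, Dynlrb2 and Rsph1 were above background was not tested.

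**Figure D1:**
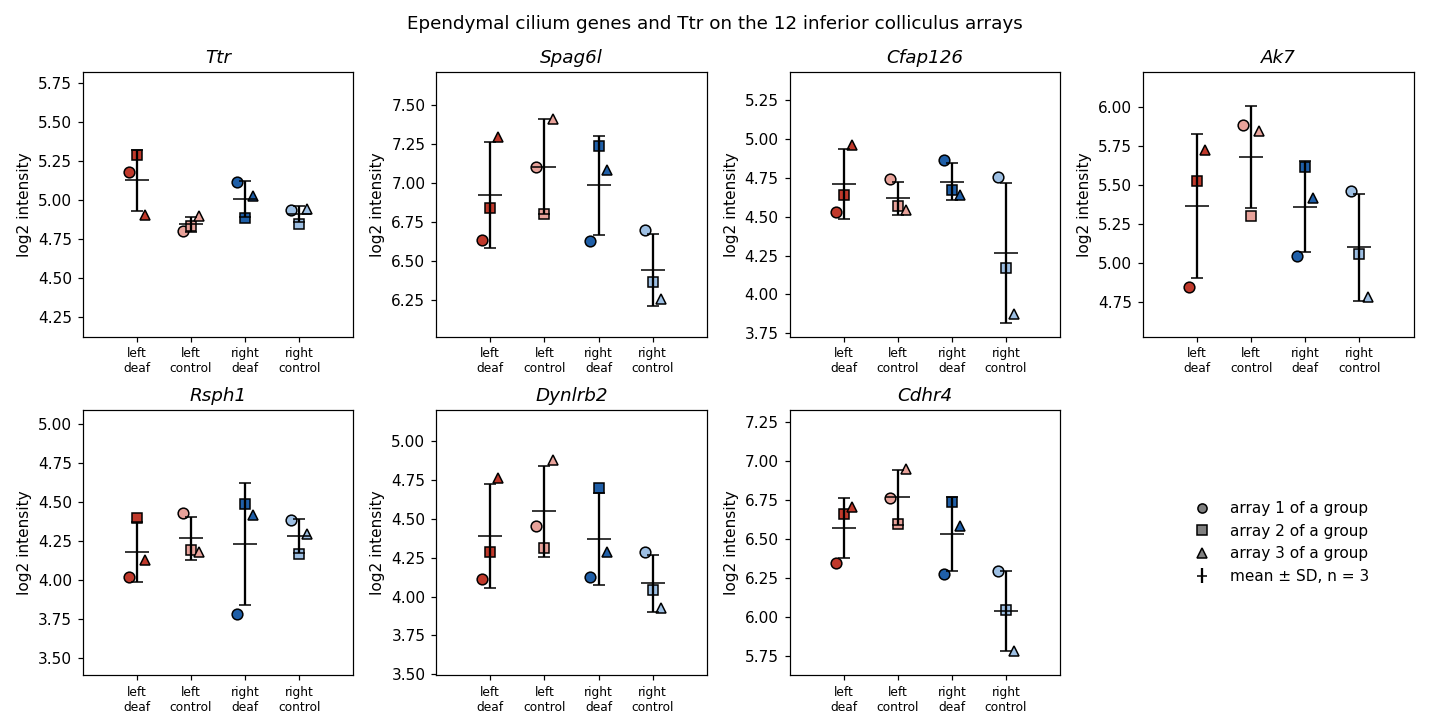
Log2 intensity (y axis) of the 7 measured genes in left deaf, left control, right deaf and right control IC, with a symbol per array and the mean with SD (n = 3); each panel spans the same 1.7 log2 units. The right control points are low for Cdhr4, Spag6l, Dynlrb2 and, for 2 of 3 arrays, Ak7 and Cfap126, and Ttr has the narrowest spread.

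Part of the cilium genes, but not all of them, were low on the same arrays. Among Spag6l, Ak7, Dynlrb2 and Cdhr4, grouped after their values were seen, all 6 pairs correlated over the 12 arrays with Pearson's r between 0.868 and 0.947 and Spearman's rho between 0.888 and 0.965. In a two-sided permutation test with 100000 resamples, adjusted over all 21 pairs of the 7 genes, these pairs had p between 0.00021 and 0.00119 for r and between 0.00014 and 0.00084 for rho. Without the 2 arrays farthest from the median of the first gene of a pair, r was 0.806 to 0.918. After the group means had been subtracted, r was 0.819 to 0.951, so the shared variation was also present between arrays of the same group. The permutation moved arrays across groups, so its p also takes in group differences, and the r within groups has no p. All arrays share the same normalization, and the labels name no batch within which to repeat this.

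Cfap126 had r between 0.558 and 0.675 with those 4 genes (adjusted permutation p between 0.0449 and 0.117), but rho between 0.322 and 0.490 (adjusted permutation p between 0.309 and 0.404). Without right controls 2 and 3, the arrays farthest from the median of Cfap126, r fell to between -0.19 and 0.189 for 3 of the 4 pairs. These 3 relations therefore rest on those arrays. For the pair with Spag6l, left control 3 and right control 3, farthest from the median of Spag6l, were left out instead, and r was 0.634. That value does not show whether the pair rests on right controls 2 and 3. Rsph1 had r between -0.108 and 0.465 with the other 5 cilium genes, none of which passed (adjusted permutation p between 0.242 and 0.765). Ttr had r between -0.336 and 0.119 with the 6 cilium genes (adjusted permutation p between 0.487 and 0.792). Within groups, all 6 correlations of Ttr were below 0, between -0.569 and -0.163.

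**Figure D2:**
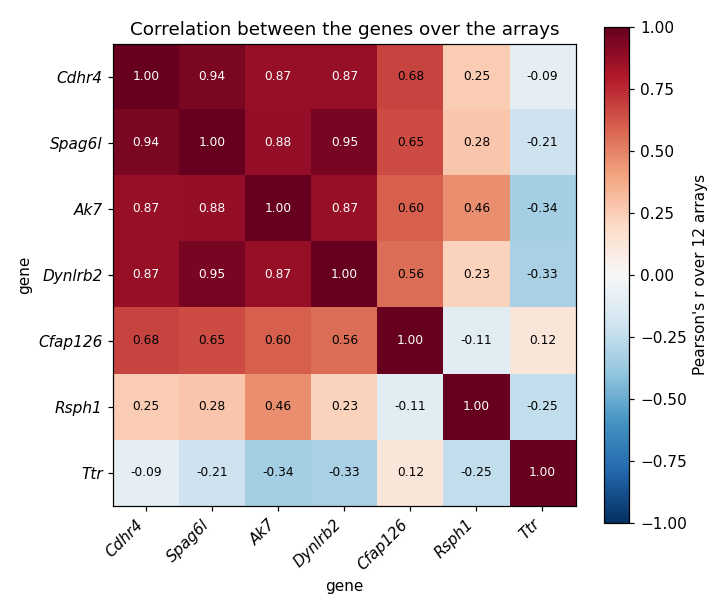
Pearson's r over the 12 arrays for each pair of the 7 genes, from -1 (blue) to 1 (red). Cdhr4, Spag6l, Ak7 and Dynlrb2 form a block with r of 0.868 or more, while Rsph1 and Ttr stand outside it.

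The genes most like the cilium genes were found by Pearson's r to the mean gene-centred value of the 6 cilium genes, among 9081 genes above the median gene level. The 5 highest were Caly, a vesicle protein gene of neurons (r = 0.917, rho = 0.909), Spcs3, a signal peptidase subunit gene (0.910 and 0.888), Wdpcp, a planar polarity effector gene needed for cilium formation (0.886 and 0.839), Emc6 of the endoplasmic reticulum membrane complex (0.886 and 0.797) and Dnai4, a dynein intermediate chain gene (0.875 and 0.839). Being the highest of many, these values are a description over 12 arrays. Dnai4 was at 6.50, 6.59 and 6.84 in left deaf arrays, against 6.57, 6.62 and 6.71 in left control arrays, and at 6.32, 6.63 and 6.43 in right deaf arrays, against 6.33, 6.13 and 5.90 in right control arrays. For Ttr the 5 highest were Stx6 (r = 0.880), Lats2 (0.877), Tcf7l1 (0.845), Akap5 (0.838) and Mgat3 (0.834), and none of them is in the choroid plexus list.

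Other cilium genes, sorted by their part of the cilium, showed how far the pattern reached. An r over 0.5 to the mean of the 6 cilium genes was found for 23 of 32 other motile cilium proteins and for 12 of 23 axonemal dynein arm and docking genes. It was found for 5 of 12 radial spoke and central pair genes, 6 of 23 genes of dynein-2 and intraflagellar transport, which most cells use for primary cilia, and 0 of 10 cilium transcription factor genes. Among all other genes the share was 11.4%. For 23 other choroid plexus genes it was 2, and 2 of these 23 had such an r to Ttr, where all other genes gave 5.8%. Cerebellar granule cell genes ran opposite to the mean of the 6 cilium genes, with a median r of -0.481. Hippocampal and cortical genes did so too (-0.414), as did cilium transcription factor genes (-0.349), astrocyte genes (-0.285) and pineal gland genes (-0.285). Meningeal and fibroblast genes had a median r of 0.172. Whether these lists bear on the cilium pattern was not tested.

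**Figure D3:**
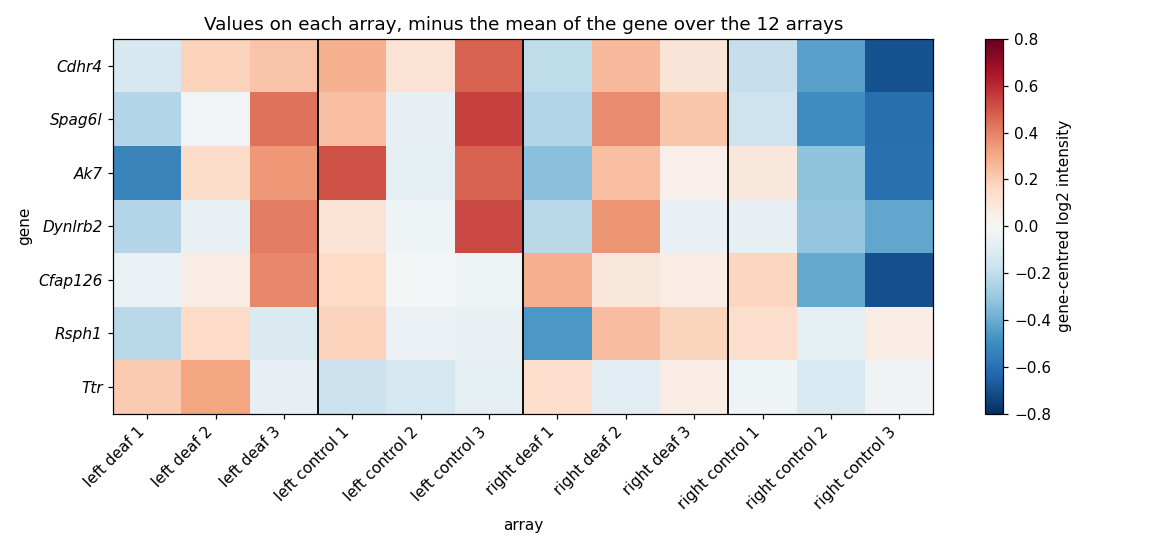
Log2 intensity of each gene minus its mean over the 12 arrays (colour), with arrays in columns by group and genes in rows. The upper 4 rows have a similar order of arrays: right controls 2 and 3 and the array 1 of each deaf group are blue, and left control 3 and left deaf 3 are red.

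Comparing the left with the right IC of control rats shows whether the sides differed without deafness. The left control mean was higher for 5 of the 6 cilium genes, where 49.6% of all genes were higher, and the median difference was 0.52 against -0.0013 for all genes. Cdhr4 had means of 6.77 ± 0.18 in left control and 6.04 ± 0.26 in right control (SD, n = 3), a log2 difference of 0.73 (SE 0.16). For Spag6l the means were 7.10 ± 0.30 in left control and 6.44 ± 0.23 in right control, a difference of 0.67 (SE 0.21). Ak7 differed by 0.58 (SE 0.25), Dynlrb2 by 0.46 (SE 0.20), Cfap126 by 0.35 (SE 0.19), Rsph1 by -0.016 (SE 0.17) and Ttr by -0.066 (SE 0.10).

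None of these passed limma with adjustment over all 18166 genes: the lowest adjusted p was 0.870, for Cdhr4. The fit called 0 genes (0%) in this comparison, and 900 genes (4.95%) had an unadjusted p under 0.05, among them 4 of the 7. All left control arrays lay above all right control arrays for Cdhr4, Spag6l and Dynlrb2, 3 of the 7, where 4.96% of all genes did so. The right control arrays also entered the right-side comparison in view when the list was drawn up. Nothing is therefore read from the counts of the genes described in the comparison of control sides. Without right control 3 the median over the 6 cilium genes was 0.40 and the difference of Cfap126 was 0.15.

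Across the cilium lists the same side was higher, again with 0 genes past the adjusted threshold. Of the axonemal dynein genes 19 of 23 were higher in left control, with a median of 0.27, and 11 of the 23 had arrays that did not overlap. Of the other motile cilium proteins 29 of 32 were higher, with a median of 0.30, and 14 were wholly higher and 1 wholly lower in left control arrays. Over all genes 49.6% were higher and 4.96% wholly higher in left control. Many genes of these lists varied together with the cilium genes described, so the counts are not of separate observations. The radial spoke and central pair list had 9 of 12 higher (median 0.17) and intraflagellar transport 15 of 23 (median 0.084). Cilium transcription factors went the other way, with 1 of 10 higher (median -0.12), and choroid plexus genes had 8 of 23 higher (median -0.039). Without right control 3, an alternative added after the data were seen, the dynein and other motile lists had 19 of 23 and 25 of 32 higher, with medians of 0.22 and 0.24.

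Examples picked after their values were seen were Dnai4, at 6.63 ± 0.073 in left control and 6.12 ± 0.21 in right control (difference 0.51, SE 0.13), and Ccdc65, a gene of the regulatory complex between microtubule doublets (0.30, SE 0.094), both with arrays that did not overlap. Zmynd10, a dynein assembly factor, differed by 0.40 (SE 0.16) and Tmem212, an ependymal membrane protein gene, by 0.41 (SE 0.22), with overlapping arrays. In the same comparison 12 of 13 cerebellar granule cell genes were lower in left control (median -0.24), as were 8 of 9 hippocampal and cortical genes (median -0.19). Meningeal and fibroblast genes were lower for 17 of 20 (median -0.19, and -0.34 without right control 3) and astrocyte genes for 10 of 11 (median -0.090). The part of these tissues and cells in the cilium result was not tested. In bulk tissue, fewer ependymal cells and less RNA of these genes per cell cannot be told apart.

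**Figure D4:**
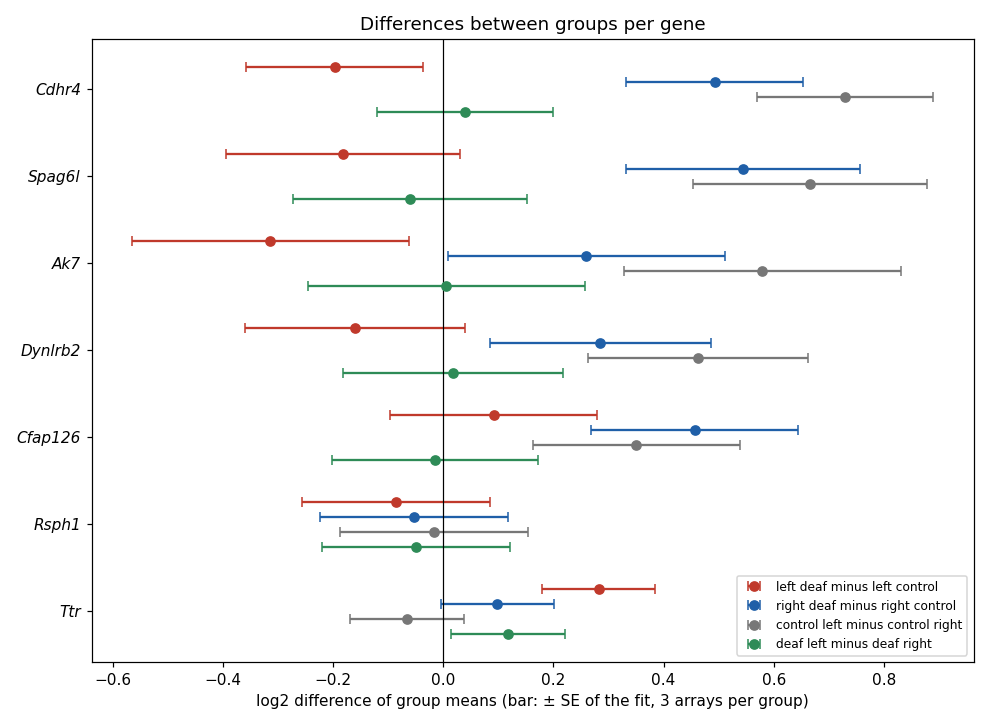
Log2 difference of group means (x axis, with SE of the limma fit, 3 arrays per group) for each of the 7 genes in 4 comparisons. For Cdhr4, Spag6l, Ak7 and Dynlrb2 the comparisons that contain the right control group lie above 0, and the deaf left minus deaf right values lie within 0.07 of 0.

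In deaf rats the left and right means of the cilium genes lay close together. The log2 difference of left deaf minus right deaf lay between -0.061 (Spag6l) and 0.040 (Cdhr4) over the 6 cilium genes, with SE from 0.16 to 0.25 and limma adjusted p = 1.00 for each. Their median was -0.0047, with 3 of 6 higher in left deaf, where 47.8% of all genes were. The closeness rests on single arrays: all 6 were higher in left deaf without left deaf 1 (median 0.12), and all 6 were lower without left deaf 3 (median -0.15). Without right deaf 1 the median was -0.13 and without right deaf 2 it was 0.11. The fit called 0 genes (0%) and 607 genes (3.34%) had an unadjusted p under 0.05. None of the 7 genes had arrays that did not overlap, where 3.73% of all genes were wholly higher and 4.58% wholly lower in left deaf. A p that misses the threshold at these SE does not show that the sides were equal. Ttr was at 5.13 ± 0.20 in left deaf and 5.01 ± 0.12 in right deaf, a difference of 0.12 (SE 0.10).

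In the right IC, ipsilateral to the ablation, 5 of the 6 cilium genes had higher means in deaf than in control rats, where 50.5% of all genes did. The comparison was in view when the list was drawn up, so the values carry no test and nothing is read from the count. It shares the right control arrays with the comparison of control sides above. Spag6l averaged 6.98 ± 0.32 in right deaf and 6.44 ± 0.23 in right control arrays, a log2 difference of 0.54 (SE 0.21). Cdhr4 averaged 6.53 ± 0.24 in right deaf and 6.04 ± 0.26 in right control arrays (0.49, SE 0.16). Cfap126 averaged 4.72 ± 0.12 in right deaf and 4.27 ± 0.45 in right control arrays (0.46, SE 0.19). The differences of Dynlrb2 (0.28, SE 0.20), Ak7 (0.26, SE 0.25), Ttr (0.098, SE 0.10) and Rsph1 (-0.053, SE 0.17) were within 1.5 SE of 0.

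None of the 7 genes had right deaf arrays wholly above right control arrays (3.64% of all genes did) or wholly below them (3.84%), and limma called 0 of 18166 genes (0%), with 783 (4.31%) at an unadjusted p under 0.05. The median over the 6 cilium genes was 0.37, against 0.0014 for all genes, and 0.23 without right control 3. Without that array Cfap126 was at 0.26 and Ak7 at 0.10. Of the 13 cerebellar granule cell genes 11 were lower in right deaf (median -0.30), for example Gabra6, a GABA receptor subunit gene of granule cells, at 2.85 ± 0.34 in right deaf and 4.38 ± 0.80 in right control. Whether this bears on the cilium genes was not tested.

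The wider cilium lists had smaller right-side differences. The cilium genes described include Spag6l and Cfap126, which had been singled out in this comparison, so nothing is read from their larger median. The medians were 0.15 for axonemal dynein genes (17 of 23 higher), 0.14 for other motile cilium proteins (25 of 32), 0.086 for intraflagellar transport (18 of 23) and 0.055 for radial spoke and central pair genes (9 of 12), with 0 genes past the adjusted threshold. Without right control 3 they were 0.070, 0.037, 0.025 and 0.064. Odad1, a docking factor of the outer dynein arm, was at 0.41 (SE 0.13), Lrrc23, a radial spoke gene, at 0.30 (SE 0.10), Mlf1 at 0.33 (SE 0.14) and Ift88, a core gene of intraflagellar transport, at 0.28 (SE 0.10). Dnai2, an outer arm intermediate chain gene, was at -0.40 (SE 0.13), with 3.50 ± 0.13 in right deaf and 3.90 ± 0.23 in right control. Among choroid plexus genes 10 of 23 were higher (median -0.011), and Cldn2, a claudin of choroid epithelium, was at 0.45 (SE 0.15). Each named gene of these lists had a limma adjusted p of 1.00.

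In the left IC, contralateral to the ablation, the cilium genes leaned the other way by less than their spread. The left deaf mean was lower for 5 of the 6, and 48.2% of all genes were higher in left deaf. The log2 differences were -0.31 (SE 0.25) for Ak7, -0.20 (SE 0.16) for Cdhr4, -0.18 (SE 0.21) for Spag6l, -0.16 (SE 0.20) for Dynlrb2, -0.086 (SE 0.17) for Rsph1 and 0.092 (SE 0.19) for Cfap126. The median of -0.17 became -0.029 without left deaf 1, -0.068 without left control 3, -0.28 without left control 2 and -0.30 without left deaf 3.

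Ttr averaged 5.13 ± 0.20 in left deaf and 4.85 ± 0.05 in left control arrays, a log2 difference of 0.28 (SE 0.10). This did not pass (limma adjusted p = 1.00 over 18166 genes). The fit called 0 genes (0%) in the left comparison, and 670 (3.69%) had an unadjusted p under 0.05, among them Ttr. The arrays of Ttr did not overlap, as for 4.61% of all genes in that direction, and without left deaf 2 the difference was 0.20. Left deaf 2 was also the array with the highest mean value of meningeal and fibroblast genes, 0.505, where the other left deaf arrays had -0.078 and -0.119. Of the 20 genes of that list 18 were higher in left deaf, with a median of 0.22, and 0.026 without left deaf 2. Whether this bears on Ttr was not tested.

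Of 23 other choroid genes, 12 were higher in left deaf (median 0.0082), and Clic6, a chloride channel gene of choroid epithelium, was lower, at 4.90 ± 0.12 in left deaf and 5.17 ± 0.11 in left control (-0.27, SE 0.10). Folr1, the folate receptor of the choroid plexus, was at 4.70 ± 0.075 in left deaf and 4.92 ± 0.019 in left control (-0.22, SE 0.084). Both had arrays that did not overlap, and 5.7% of all genes were lower in this way, against 5 of the 23. Neither passed (limma adjusted p = 1.00). Of the other cilium lists, 18 of 23 axonemal dynein genes and 23 of 32 other motile cilium proteins were lower in left deaf, with medians of -0.091 and -0.054.

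**Figure D5:**
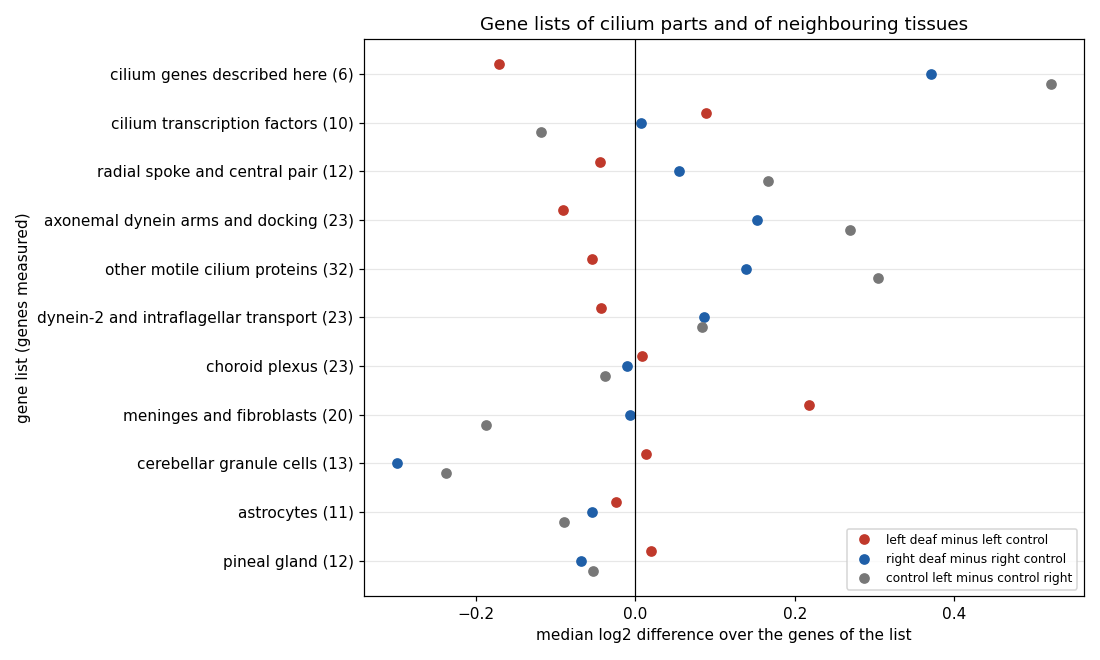
Median log2 difference (x axis) over the genes of each list (rows, with the number of genes measured apart from the 7 described) for left deaf minus left control, right deaf minus right control and control left minus control right. The axonemal dynein and other motile cilium lists take the same order of the 3 comparisons as the 6 cilium genes, and the choroid plexus list lies within 0.04 of 0 in each.

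The difference between the sides in their deaf minus control change was below 0 for all 6 cilium genes, with a median of -0.51, where 49% of all genes were above 0. It was -0.73 (SE 0.30) for Spag6l, -0.69 (SE 0.23) for Cdhr4, -0.57 (SE 0.36) for Ak7, -0.44 (SE 0.28) for Dynlrb2, -0.37 (SE 0.27) for Cfap126 and -0.033 (SE 0.24) for Rsph1. None passed (limma adjusted p = 1.00 for each), 0 genes were called (0%) and 622 genes (3.42%) had an unadjusted p under 0.05, Spag6l and Cdhr4 among them. The value uses the same arrays as the comparisons above, so it adds no separate evidence. The median was -0.31 without left deaf 1. Of the axonemal dynein genes 20 of 23 were below 0 and of the other motile cilium proteins 27 of 32. In the same term 12 of 13 cerebellar granule cell genes (median 0.38) and 18 of 20 meningeal and fibroblast genes (median 0.23) were above 0, and their part in the cilium values was not tested.

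Averaged over both sides, deaf minus control was 0.27 (SE 0.13) for Cfap126, 0.19 (SE 0.073) for Ttr, 0.18 (SE 0.15) for Spag6l, 0.15 (SE 0.11) for Cdhr4, 0.062 (SE 0.14) for Dynlrb2, -0.027 (SE 0.18) for Ak7 and -0.069 (SE 0.12) for Rsph1. Each had a limma adjusted p of 0.998, and no gene of the 7 had all 6 deaf arrays beyond all 6 control arrays (0.0991% of all genes were higher in this way and 0.171% lower). The fit called 0 genes (0%), with 823 (4.53%) at an unadjusted p under 0.05, Ttr among them. For 5 of the 7 genes the deaf mean was higher, against 49.4% of all genes. The right arrays were in view when the list was drawn up, so nothing is read from this count. With each array left out, Spag6l was between 0.088 (without left deaf 3) and 0.27, and Cdhr4 between 0.083 (without right control 3) and 0.21. Cfap126 was between 0.18 (without right control 3) and 0.40 and Ttr between 0.15 and 0.25, while Ak7 changed sign in 5 of 12 such fits, Dynlrb2 in 2 and Rsph1 in 1. Of the cerebellar granule cell genes 10 of 13 were lower in deaf rats (median -0.19), and their part in these values was not tested.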

How the data were processed

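The deposited values are log2 intensities of 29489 probes on 12 arrays of 1 colour. Per the labels, total RNA was made into single-stranded cDNA, fragmented and labelled with biotin for Affymetrix arrays. The sources used here name neither the array model nor the normalization software. The 12 arrays differ by at most 0.0995 at any rank. Probes with 1 gene symbol in the platform annotation (18511) were used, 575 with several and 10403 without one were not, and the brightest probe was kept for each of 18166 genes. Dim genes were kept. A linear model with 4 group means was fitted to all genes with limma 3.58.1 in R 4.3.3, with 8 residual degrees of freedom. Tests are two-sided, with Benjamini-Hochberg adjustment over all genes and a threshold of 0.05, and were tested on simulated data. Correlations used numpy 2.4.6 in Python 3.11.15. The genes, the lists and the comparisons were chosen with earlier results of these data known. Unless stated otherwise, genes named beside the 7 come from 3 sources, and not every gene of these sources is named. The sources are the 3 list members of smallest p in the left and right comparisons, the brightest markers and the 5 most similar genes.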

Additional observations from a re-analysis of the deposited data

Results flagged for a closer look

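A probe that matches both Spag6l and its close relative Spag6 was outside the rule for 1 gene symbol. It was at 3.77, 3.65 and 3.81 in right deaf arrays, against 3.30, 3.36 and 3.60 in right control arrays, a log2 difference of 0.32 (SE 0.11), with no overlap. Its limma adjusted p over all probes was 1.00, its level lay below the lower quartile of 3.78 on most arrays, and its correlation with the Spag6l probe over the 12 arrays was -0.021. The right control arrays had mean gene-centred values of 0.354, 0.112 and 0.554 for cerebellar granule cell genes. Whether this bears on the probe was not tested.

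Rfx2, an RFX transcription factor gene, had every deaf array above every control array on the left and below on the right. It was at 6.32, 6.44 and 6.13 in left deaf arrays, against 6.06, 6.02 and 6.10 in left control arrays, and at 6.09, 6.10 and 6.07 in right deaf arrays, against 6.19, 6.29 and 6.55 in right control arrays. The difference between the sides was 0.50 (SE 0.15), and it did not pass (limma adjusted p = 1.00). Ift140, a gene of intraflagellar transport, had every deaf array below every control array on the left and above on the right. It was at 7.42, 7.39 and 7.42 in left deaf arrays, against 7.45, 7.49 and 7.48 in left control arrays, and at 7.54, 7.48 and 7.55 in right deaf arrays, against 7.38, 7.40 and 7.38 in right control arrays. The difference between the sides was -0.20 (SE 0.093; limma adjusted p = 1.00). These are 2 of 126 named genes looked at, and both were named for a small p in these comparisons, so nothing is read from the count. Over all genes, 4.61% were wholly higher and 5.7% wholly lower in left deaf. On the right 3.64% were wholly higher and 3.84% wholly lower in deaf arrays. The share of all genes with opposite directions on the sides was not counted. The right-side values of Rfx2 and Ift140 rest on the same right control arrays, which were high in cerebellar granule cell genes. Whether this bears on Rfx2 and Ift140 was not tested.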

How the results depend on the processing

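The 796 values of the 7 genes under alternative settings each moved by less than 1 residual SD of the gene, 38 of them changed sign, and the lowest adjusted p was 0.222. Centring or quantile normalization shifted values by at most 0.0193. The count of genes called changed from 0 to 1 in the left comparison among genes above the median gene and with a trended robust variance (Vgf in both), to 1 and 2 between the sides of deaf rats under the same settings (Vgf; Vgf and Or52a5b), and with the replicate block to 1 between the sides of control rats and 1 in the side by deafness term (RGD1565183 in both). With each array left out it was 0 to 1 on the left (Vgf, without left deaf 3) and in the mean of both sides (Clec2d2, without right control 3), and 0 otherwise. None of these is on the cilium or choroid lists, and the cause was not tested. Over the 18 same-number pairs of arrays from different groups, deviations correlated between -0.193 and 0.159, and 3 of them exceeded 0.1. Most of these pairs join a control with a deaf array, which cannot share a rat. Between left and right arrays of the same arm and number, r lay between -0.0558 and 0.149. For 8 of 12 arrays the best match in another group, control or deaf, had their own number. These values cannot decide whether left and right arrays share rats, and the numbers were not taken as pairs. With each array left out, the median of the 6 cilium genes was 0.23 to 0.53 on the right, -0.30 to -0.029 on the left, 0.029 to 0.17 in the mean of both sides, 0.40 to 0.68 between the sides of control rats and -0.15 to 0.12 between those of deaf rats. The small number of arrays limits the precision.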
